A study of Mus musculus with 8 samples.

Results

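The circadian clock genes described here are Clock, Arntl, Per1, Per2, Per3, Cry1, Cry2, Nr1d1, Nr1d2 and Dbp. They were chosen by symbol, and all 10 were found among the 23420 rows of the deposited table that name a gene. The table's accession column is out of line with its gene names, since of 18556 named genes whose accession is known to the reference only 2 carry their own. Every value here therefore rests on the gene name, under which the corneal keratin Krt12 had 1137735 corneal and 233324 limbal reads. The side of Krt12 was itself used to read the direction, as set out below. Corneal buttons and limbal rims of wild type C57BL/6J mice, 8 weeks old, were compared by total RNA sequencing. The limbal rim is the ring between cornea and sclera that houses the epithelial stem cells, and the button is the cornea inside it. The labels name no treatment, and the mice lived under a cycle of 12 hours light and dark. Tissue of 16 eyeballs was pooled by region before RNA extraction, and the time of day at collection is not given in the sources used here. The labels number 4 samples per tissue, but the table holds values that come from 1 cornea library and 1 limbus library. Reads of both were worked back from the deposited mean, fold change and standard error, so the ratios here are not independent of that fold change. Every ratio compares a pair of libraries, has no replicate check and carries no p-value.

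The mammalian clock is a feedback loop of transcription that runs in most cells of the body. CLOCK and BMAL1, the product of Arntl, bind E-boxes and switch on the Per and Cry genes, whose proteins return to the nucleus and block their own activators. In a second loop, the REV-ERB receptors (Nr1d1, Nr1d2) repress Arntl and Clock while ROR receptors activate them, and PAR-bZIP factors such as DBP carry the rhythm to output genes through D-boxes. In the cornea, epithelial cell division is known to follow the time of day. These transcripts are known to oscillate, and without a series of collection times a difference in phase and a difference in mean level cannot be told apart.

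The promoters of the genes measured were searched for the letters of these elements. RefSeq promoter windows (GRCm38.p6, 250 bases before to 50 after each start) matched 9 of the 10 genes with 13 windows, all but Per2. Both strands were searched for the E-box CACGTG, the noncanonical E-box CACGTT, the D-boxes TTATGTAA and TTACGTAA and the REV-ERB/ROR cores TAGGTCA and TGGGTCA, and no match in these windows overlapped another. The stretches below lie before the start and are shown because they hold these letters, and a match is not a site of binding. Capitals mark the motif, and the noncanonical E-box reads AACGTG here because it lies on the opposite strand.
Cry1: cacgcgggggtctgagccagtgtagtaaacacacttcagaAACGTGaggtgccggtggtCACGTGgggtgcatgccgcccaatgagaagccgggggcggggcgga
Per1: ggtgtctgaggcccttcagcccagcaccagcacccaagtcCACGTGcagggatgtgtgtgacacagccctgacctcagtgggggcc
Cry2: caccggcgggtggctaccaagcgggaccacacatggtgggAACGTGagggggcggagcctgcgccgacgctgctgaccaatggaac
Nr1d1: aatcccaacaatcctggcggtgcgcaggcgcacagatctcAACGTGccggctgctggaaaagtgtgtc
Per3: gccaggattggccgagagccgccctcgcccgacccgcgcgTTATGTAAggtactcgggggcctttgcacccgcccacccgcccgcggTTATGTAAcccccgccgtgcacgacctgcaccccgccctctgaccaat

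The Cry1 stretch is chr10:85185069-85185173 (minus strand), with the E-box 60 bases and the noncanonical E-box 79 bases before the start. For Per1 the stretch is chr11:69098743-69098828 (plus strand), which lies inside the span of the gene, in an intron, before an inner start, with the E-box 166 bases before that start. The Cry2 stretch is chr2:92434190-92434275 (minus strand), with its motif 166 bases before the start, and that of Nr1d1 is chr11:98775378-98775445 (minus strand), with its motif 28 bases before. Per3 carries the same D-box letters at 205 and 158 bases before its start, in chr4:151044776-151044910 (minus strand). A REV-ERB/ROR core, TAGGTCA, was found 30 bases after the start in 1 window of Arntl. Among all 32851 windows of the same length, 7.15% hold the E-box, 4.68% the noncanonical E-box, 1.06% a D-box and 6.45% a REV-ERB/ROR core, beside 2, 3, 1 and 1 of the 13 windows of clock genes. No motif was found in the windows of Clock, Nr1d2 and Dbp, which says only that these letters are not in them.

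Named genes took 26104317 reads in the corneal and 21182025 in the limbal library. Reads were divided by a size factor per library (1.03 and 0.967) and compared as log2 of limbus over cornea, so that a negative value means more in the cornea. Intervals are exact Clopper-Pearson intervals at the 95% level and cover counting error only, not the spread between libraries or animals. Copies made by PCR cannot be told from separate molecules without identifiers, so the intervals may be too narrow. The header of the table does not say over which tissue its fold change is taken. It was read here as cornea over limbus because that places Krt5, Krt12 and Kera in the cornea and Krt14, Krt15 and Krt19 in the limbus, the tissue the study names for each. With the opposite reading every direction below would turn.

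Most clock genes lay on the corneal side, by unequal amounts. Of the 10, 9 had more normalized reads in the cornea and Per1 had more in the limbus, while 47.8% of the 13932 genes whose mean reached 10 normalized reads had more in the limbus. For the clock genes the median ratio stood at -0.45 on the log2 scale, beside -0.04 over those 13932 genes. Per2, Cry1, Nr1d1, Cry2 and Dbp lay nearer the middle, with 21.7% (Per2) to 44.3% (Dbp) of the 13932 genes lower. At least 1.5-fold, 4 of the 10 were higher in the cornea (Clock, Arntl, Per3 and Nr1d2), where 21.1% of all genes were, and 1 was higher in the limbus (Per1), where 23.8% were. At least 2-fold, 3 were higher in the cornea against a background of 8.88%, and none in the limbus against 18%. Counting error alone was exceeded by 8 genes towards the cornea and 1 towards the limbus, shares to be read beside 40.5% and 36% of all genes. Scaling to total reads moved every log2 ratio up by 0.21, and with it the median of all genes to 0.17 and that of the clock genes to -0.25. Arntl then lay at -0.92, under the 2-fold call.

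**Figure D1:**
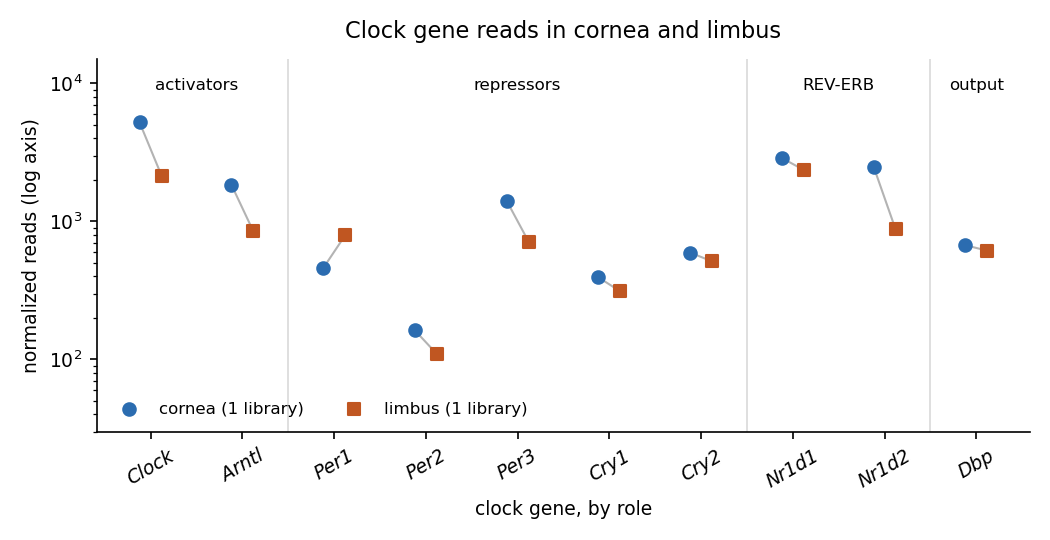
Normalized reads of the 10 clock genes on a log axis, grouped by role, with 1 circle for the cornea library and 1 square for the limbus library of each gene. Per1 is the gene whose square lies above its circle, Clock has the most reads in the cornea and Per2 the fewest in both libraries. Scaled to total reads, Dbp too had more in the limbus.

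The activators Clock and Arntl both had more reads in the cornea. Clock (chr5:76209868-76304792, minus strand) had 5393 corneal and 2073 limbal reads, which normalized to 5217 and 2143 (reads over the size factor). Its log2 ratio was -1.28 (95% CI -1.36 to -1.21), a 2.43-fold higher value in the cornea, and 4.78% of the 13932 genes had a lower ratio. Arntl (chr7:113207465-113314126, plus strand) had 1912 corneal and 820 limbal reads, which normalized to 1850 and 848. Its log2 ratio of -1.13 (95% CI -1.25 to -1.01) was 2.18-fold in favor of the cornea. The products of these genes work as a dimer, and Clock minus Arntl was -0.16 on the log2 scale (95% CI -0.30 to -0.02).

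The paralogs of both genes had other ratios. Npas2, which can take the place of CLOCK beside BMAL1, had 462 corneal and 835 limbal reads and lay at a log2 ratio of 0.95 (95% CI 0.78 to 1.12). Clock minus Npas2 was thus -2.23 on the log2 scale (95% CI -2.42 to -2.05), a comparison that no scaling can move. Per kilobase of exon, the level of Clock was 4.07 times that of Npas2 in the cornea library (95% CI 3.70 to 4.49) and 0.866 times in the limbus library (95% CI 0.799 to 0.940). Per kilobase, the order of this pair was therefore opposite in the libraries. In reads, Clock exceeded Npas2 in both, with 5393 and 462 in the cornea and 2073 and 835 in the limbus. The limbal order thus rests on exon lengths of 13727 and 4791 bases, and its interval does not cover the choice of length. Arntl2, the paralog of Arntl, was read 256 times in the cornea and 183 in the limbus, which put it at -0.39 (95% CI -0.67 to -0.11). Arntl minus Arntl2 was -0.74 (95% CI -1.04 to -0.43), and per kilobase Arntl2 stayed below Arntl in both tissues, 5.65-fold in the cornea and 3.39-fold in the limbus.

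The period genes, which encode repressors of CLOCK and BMAL1, went in both directions. Per1 (chr11:69095217-69109960, plus strand), whose transcript is also known to be induced rapidly by outside signals, had 473 corneal and 766 limbal reads, which normalized to 458 and 792. Its log2 ratio of 0.79 (95% CI 0.62 to 0.96) was 1.73-fold towards the limbus, and 20.4% of all genes had a higher one. Per3 (chr4:151003652-151044665, minus strand), with the pair of D-boxes shown above, had 1462 corneal and 691 limbal reads, which normalized to 1414 and 714. The log2 ratio of Per3 was -0.99 (95% CI -1.12 to -0.85), 1.98-fold higher in the cornea and thus just under the 2-fold call. Per2 (chr1:91415982-91459324, minus strand) had the fewest reads of the 10, 168 in the cornea and 106 in the limbus, which normalized to 163 and 110. The log2 ratio of Per2, -0.57 (95% CI -0.93 to -0.21), was 1.48-fold towards the cornea and just under the 1.5-fold call, with the widest interval of the 10. Between the libraries, Per1 differed from Per2 by 1.36 (95% CI 0.96 to 1.76) and from Per3 by 1.78 (95% CI 1.56 to 1.99) on the log2 scale.

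The cryptochromes, the partners of the PER proteins in repression, lay close together. Cry1 (chr10:85131700-85185064, minus strand) had 407 corneal and 301 limbal reads, which normalized to 394 and 311, and lay at -0.34 on the log2 scale (95% CI -0.56 to -0.12). Cry2 (chr2:92403646-92434043, minus strand) had 615 corneal and 497 limbal reads, which normalized to 595 and 514, and lay at -0.21 (95% CI -0.39 to -0.04). The difference between them, Cry1 minus Cry2, was -0.13 with an interval from -0.41 to 0.15, so none was detectable at this depth. Scaled to total reads, the ratios were -0.13 for Cry1 and -0.01 for Cry2, and both intervals then included 0.

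The REV-ERB receptors, which repress Arntl and Clock, differed in ratio from each other. Nr1d2 (REV-ERBβ, chr14:18204054-18239127, minus strand) had 2581 corneal and 847 limbal reads, which normalized to 2497 and 876. Its log2 ratio, -1.51 (95% CI -1.63 to -1.40), was the lowest of the 10 genes, 2.85-fold in favor of the cornea, and 3.17% of all genes had a lower one. Nr1d1 (REV-ERBα, chr11:98767932-98775333, minus strand) had 2980 corneal and 2280 limbal reads, which normalized to 2883 and 2357, and lay at -0.29 (95% CI -0.37 to -0.21). Nr1d1 minus Nr1d2 was 1.22 (95% CI 1.08 to 1.36), and per kilobase the level of Nr1d1 was 2.03 times that of Nr1d2 in the cornea library (95% CI 1.92 to 2.14) and 4.73 times in the limbus library (95% CI 4.37 to 5.13). Reads of Nr1d1 cannot all be told from those of Thra, a gene on the opposite strand that shares 263 of its 3077 exon bases, if the counting did not use strand, which is not stated. Thra had 1280 corneal and 1263 limbal reads.

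Among the ROR receptors, which activate through the same element, Rora had 272 corneal and 78 limbal reads and a value of -1.71 (95% CI -2.09 to -1.34), 3.26-fold higher in the cornea. In RPKM (reads per kilobase of exon, scaled to 1000000 reads), its levels of 0.797 in the corneal and 0.282 in the limbal library were below those of both REV-ERB receptors. Rorb had 5 corneal and 14 limbal reads, under the minimum mean of 10.

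Dbp, the output factor that binds D-boxes, had the smallest difference with the size factors. Dbp (chr7:45705088-45710203, plus strand) had 695 corneal and 594 limbal reads, which normalized to 672 and 614. The resulting -0.13 had a 95% CI of -0.29 to 0.03, and scaling to total reads turned it to 0.07. Sphk2, on the opposite strand, shares 539 of the 2993 exon bases of Dbp and had 2038 and 2218 reads, which is 0.22 on the log2 scale. If the counting did not use strand, reads of Dbp cannot all be told from those of Sphk2. Hlf, a PAR-bZIP factor of the same family, had 11588 corneal and 3997 limbal reads and lay at -1.44 (95% CI -1.49 to -1.39), and Dbp minus Hlf was 1.31 (95% CI 1.14 to 1.48). Nfil3 (E4BP4), which represses through the D-box that these factors activate, ran the other way with 55 corneal and 300 limbal reads. Its log2 ratio of 2.54 (95% CI 2.12 to 2.99), 5.83-fold higher in the limbus, was the highest among the clock and accessory genes that reached a mean of 10. Per kilobase, the level of Hlf was 63.9 times that of Nfil3 in the cornea library (95% CI 49.1 to 84.9) and 4.04 times in the limbus library (95% CI 3.59 to 4.56).

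**Figure D2:**
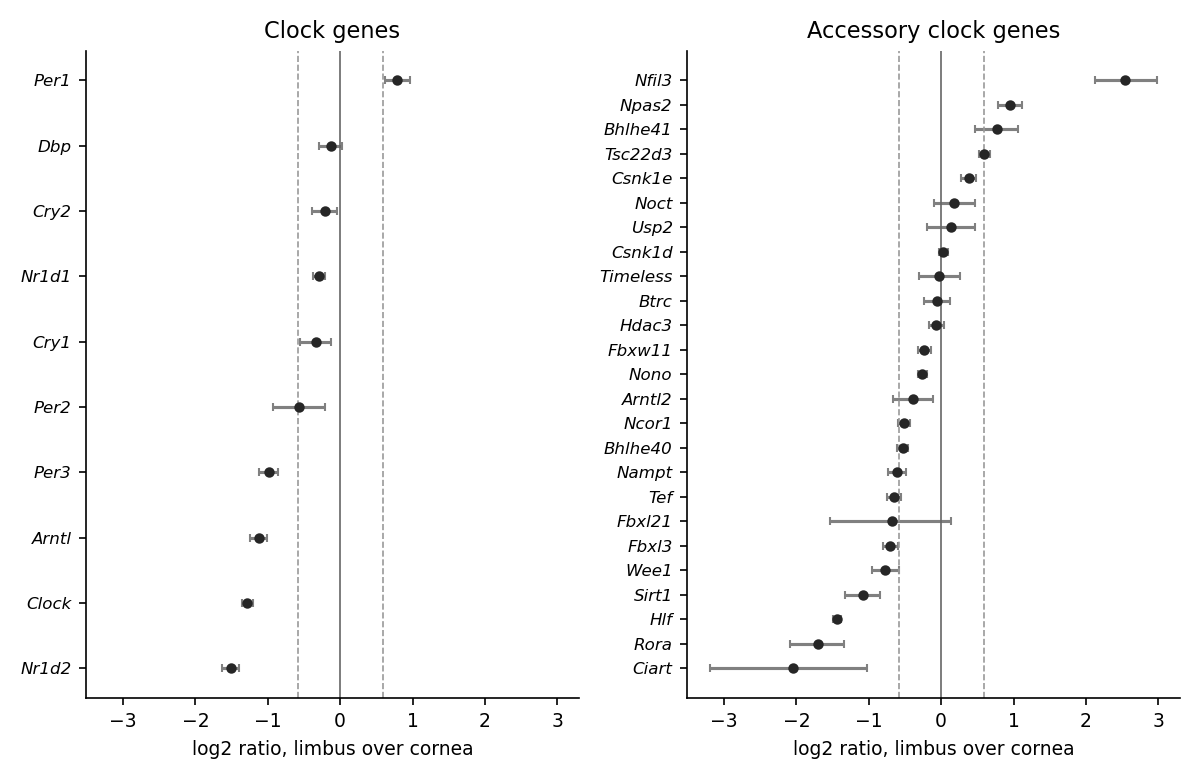
Log2 ratios of limbus over cornea for the 10 clock genes and the 25 accessory genes that reached a mean of 10, each in order of its ratio. Points are ratios of normalized reads, bars are 95% intervals of counting error, and dashed lines mark 1.5-fold. Nr1d2 and Clock lie at the corneal end and Per1 alone beyond the limbal line among the clock genes, whereas Nfil3 at 2.54 and Ciart at -2.04 bound the accessory genes. Scaling to total reads moves every point up by 0.21, which brings Dbp to 0.07.

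The other genes of the pathway were taken from a list of 26 genes. They encode activator paralogs, ROR receptors, E-box repressors, PAR-bZIP factors and E4BP4, kinases, ubiquitin ligases and a ubiquitin protease, cofactors and outputs of the clock. Of the 25 that reached a mean of 10, 9 were at least 1.5-fold higher in the cornea and 4 in the limbus, with a median log2 ratio of -0.26 and a range from -2.04 to 2.54. The shares of all genes past that fold are the 21.1% and 23.8% given above. Scaled to total reads the corneal count was 4 of 25, where 14.1% of all genes passed. At 2-fold the counts were 4 and 1, beside 8.88% and 18% of all genes. Besides Rora, Hlf and Nfil3, the genes past 2-fold were Ciart, a repressor of CLOCK and BMAL1, with 44 corneal and 10 limbal reads (log2 value -2.04, 95% CI -3.20 to -1.03), and Sirt1, a deacetylase that acts on the clock, with 464 and 205 reads (log2 ratio -1.08, 95% CI -1.33 to -0.84). The limbal genes past 1.5-fold but not 2-fold were Npas2 and, named here after their values were seen, the E-box repressor Bhlhe41 (log2 ratio 0.77) and the glucocorticoid-induced Tsc22d3 (log2 ratio 0.60). Among the 7 genes for kinases, ubiquitin ligases and the ubiquitin protease Usp2, which act on how fast PER and CRY proteins turn over, log2 ratios stayed between -0.70 and 0.38. Of these 7 genes, 2 passed 1.5-fold towards the cornea, where 21.1% of all genes did. For 1 of the 2, with 36 corneal and 21 limbal reads, the interval (95% CI -1.53 to 0.13) included 0. All 5 cofactor genes lay on the corneal side, 3 of them beyond counting error, where 47.8% of all genes lay on the limbal side and 40.5% were beyond counting error towards the cornea, but scaling to total reads leaves only those with a ratio below -0.21 there.

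**Figure D3:**
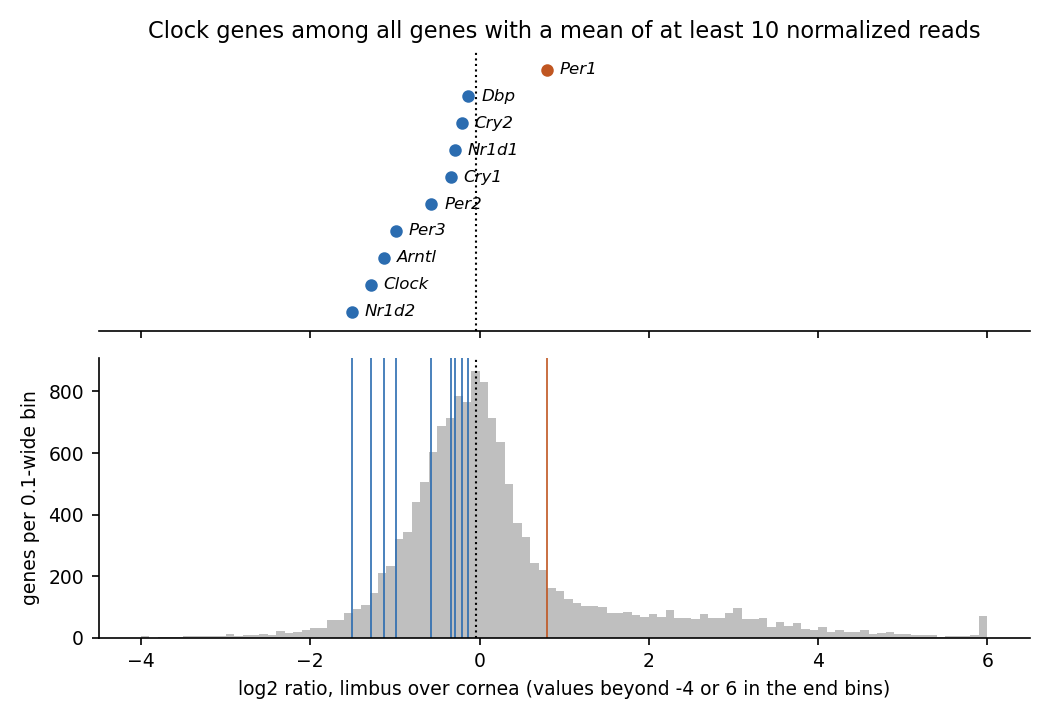
The upper panel places the 10 clock genes by their log2 ratio of limbus over cornea, and the lower panel is the number of genes per bin of 0.1 among the 13932 genes that reached a mean of 10, with the clock genes as vertical lines and the median of all genes, -0.04, as a dotted line. Nr1d2, Clock, Arntl and Per3 lie on the corneal flank, Per1 on the limbal shoulder and the other 5 within 0.6 of 0, where the sign of Dbp turns with scaling to total reads.

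Levels of different genes were compared only within a library and per length, in RPKM from the exon union of GENCODE and the reads on named genes. Intervals between levels cover counting error and not the choice of length. In the cornea the order was Nr1d1 at 37.1, Nr1d2 at 18.3, Clock at 15.1, Arntl at 9.74, Dbp at 8.90, Per3 at 5.83, Cry1 at 4.67, Cry2 at 3.73, Per1 at 3.22 and Per2 at 1.10. Every neighbor in this order differed beyond counting error, most narrowly Arntl and Dbp with a ratio of 1.09 (95% CI 1.003 to 1.195). In the limbus the order was Nr1d1 at 35.0, Dbp at 9.37, Nr1d2 at 7.39, Clock at 7.13, Per1 at 6.42, Arntl at 5.15, Cry1 at 4.25, Cry2 at 3.71, Per3 at 3.40 and Per2 at 0.855. There Nr1d2 and Clock, Cry1 and Cry2, and Cry2 and Per3 did not differ beyond counting error. Nr1d1 stood first and Per2 last in both libraries, whereas Per1 moved from rank 9 in the cornea to 5 in the limbus and Dbp from 5 to 2. The levels of Nr1d1 and Dbp carry the limits of their overlaps given above.

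**Figure D4:**
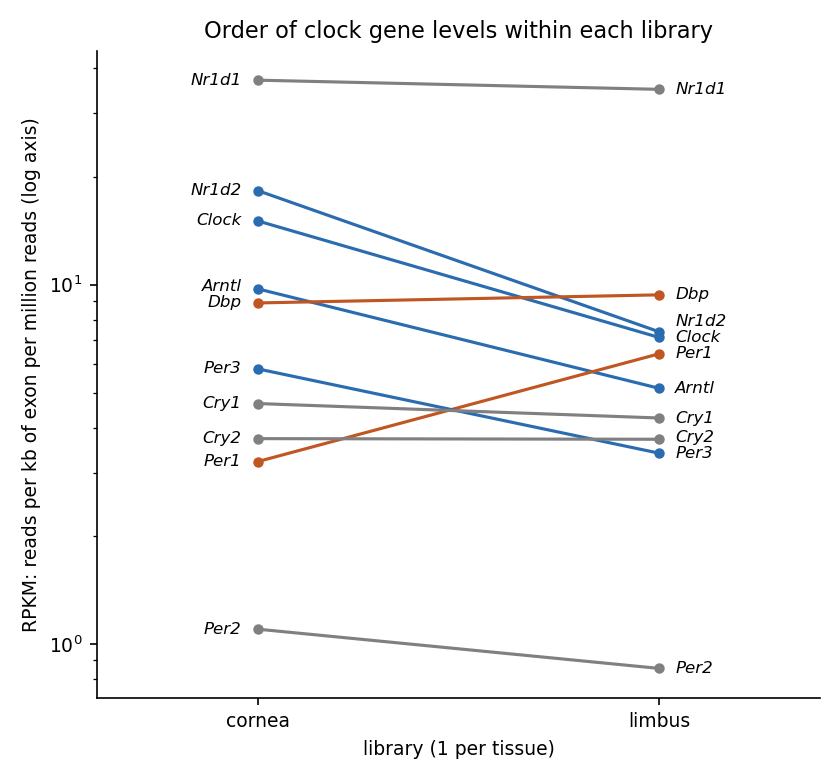
Levels of the 10 clock genes in RPKM (log axis), with the cornea library on the left and the limbus library on the right and 1 line per gene. Orange lines are genes that stand higher in the order of the limbus (Per1, Dbp), blue lines those that stand lower (Nr1d2, Clock, Arntl, Per3), and gray lines those with the same rank. RPKM is scaled to total reads, so only the order within a library should be read.

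In the order of log2 ratios, Per1 stood apart from Dbp, the next gene, by 0.92 (95% CI 0.69 to 1.16). Dbp, Cry2, Nr1d1, Cry1 and Per2 followed, and no neighbors among them differed beyond counting error. The ends of this run did differ, with Per2 minus Dbp at -0.44 (95% CI -0.84 to -0.04). Per3, Arntl, Clock and Nr1d2 formed the corneal end, in which Per3 and Arntl did not differ (interval of Per3 minus Arntl -0.04 to 0.32). Of the 45 pairs of clock genes, 35 differed in their ratio beyond counting error, with intervals not adjusted for the number of pairs.

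Markers of other cell types differed between the libraries too. All 5 corneal epithelial markers had more reads in the cornea, with a summed level of 99027 reads in 1000000 there and 46624 in the limbus, and all 5 limbal and conjunctival markers had more in the limbus, 29760 against 3325 in the cornea. The sides of Krt5, Krt12, Krt14, Krt15 and Krt19 in these lists were fixed by the reading of the direction and are no separate observation. Aldh3a1, Pax6, Tkt, Krt4 and Krt13 were not used for that reading. The lists for skeletal muscle (409 in the limbus and 1.42 in the cornea), blood vessel endothelium (98.2 and 7.58), photoreceptors (248 and 22.1), melanocytes (75.1 and 12.1), leukocytes (679 and 272) and corneal endothelium (309 and 100.3) were higher in the limbus for all 5 genes each, Schwann cell markers for 4 of 4 (283 and 168) and keratocyte markers for 3 of 5 (5232 and 3057). The keratocyte genes were split, with more limbal reads for Dcn, Col1a1 and Col1a2. Kera, also used to read the direction, had 12119 corneal and 1423 limbal reads, and Lum had 8471 and 7850. Several defining markers were at or near 0 in the cornea, with 3 reads for Cdh5 and 2 for Tek (vessels), 2 for Sox10 (Schwann cells) and 5 for Ckm (muscle). Other markers of these lists were not, with 170 reads for Kdr and 17 for Vwf among the vessel markers and 4334 for Mbp, which makes up most of the Schwann cell sum and had 5495 in the limbus. Most of the leukocyte sum came from Itgam, with 6003 corneal and 8793 limbal reads, whereas Ptprc had 30 and 72. In the limbus no marker was at 10 reads or fewer. Immediate early genes, which rise with handling of tissue, had more reads in the limbus for 7 of 8 genes, the direction of Per1. The part of these cell types and of handling in the clock gene ratios was not tested, and in pooled tissue fewer cells of a type and less RNA per cell cannot be told apart.

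Among the other clock genes, Per3 lies inside Camta1 on the same strand without shared exon bases, and Camta1 had 463 corneal and 261 limbal reads. Cry2 shares 295 of 6320 exon bases with an antisense transcript that had 0 and 1 reads, and Arntl shares 33 of 7523 with one that was not analysed here. Clock shares no exon bases with any other gene, and no overlap was found for Per1, Per2, Cry1 or Nr1d2.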

How the data were processed

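The authors pooled tissue, prepared stranded total RNA libraries, trimmed the reads and mapped them with CLC Genomics Workbench against GRCm38 (mm10). For normalization the authors name the trimmed mean of M-values. They deposited 1 table with, per gene, a mean normalized signal over the libraries, a log2 fold change, a standard error and p-values. The p-values were not used, and the fold changes and standard errors, which are neither printed nor compared, served only to find the reads. Each mean is the average of whole reads of 2 libraries over size factors (109 cornea reads are worth 102 limbus reads). A trimmed mean of M-values computed here shifted every log2 ratio by 0.02 from these size factors. Whether the deposited means used that method is therefore not known. For 11299 of 17442 genes several read pairs give the same mean, and the pair was taken whose log2 fold change and standard error, under a shrinkage model fitted to the table, met those the authors deposited. All 17442 were met within 0.001 in sum, 19 of them by a second setting of the model. For the clock genes the deviation was at most 0.0001 and the next pair missed by 0.069 or more. Reads are therefore derived, not a deposited count table. The step was tested on simulated data made with the same fitted model, so that test cannot show whether the model is the one the authors used. The 17484 rows without a gene name hold no values.

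With 1 library per tissue no test was made. Calls were at least 1.5-fold where the mean reached 10, and a library at 3 reads or fewer was set to 3. Differences between genes are differences of their log2 ratios, with intervals from conditional exact odds ratios. Named were all clock genes, accessory genes past 2-fold, Npas2, Arntl2 and ROR receptors, and markers at or near 0. The values of 2 listed genes are not reported here and stayed out of the list counts. The genes and lists were chosen with earlier results of these data known. Ciart and Noct are listed under older symbols. Alternatives were total-read scaling, a trimmed mean of M-values, a pseudocount of 1, a 2-fold call and other filters. Positions are from GENCODE (GRCm38), promoters from RefSeq. Python 3.11.15 with numpy 2.4.6 and scipy was used.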

Additional observations from a re-analysis of the deposited data

How the results depend on the processing

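The clock gene ratios kept their direction under a trimmed mean of M-values and under a pseudocount of 1, and stayed within their intervals for all 10 genes. Scaling to total reads moved 8 of 10 outside their intervals and turned Dbp. The corneal count of 4 clock genes at 1.5-fold did not change with scaling. With the size factors it was 3 at 2-fold, but under total reads Arntl lay at -0.92 and no longer passed 2-fold. The limbal count of 1 became 0 at 2-fold. For the accessory genes, the corneal count of 9 became 4 under total reads and 4 at 2-fold, and the limbal count of 4 became 1 at 2-fold, a setting chosen for them after seeing the data. The share of all genes at least 1.5-fold higher in the cornea was 14.1% under total reads, 20.4% under the trimmed mean of M-values, 22.1% with a mean of at least 50 and 18.3% with no filter. The share higher in the limbus was 29.2% under total reads and 17.4% with a mean of at least 50. These changes follow from the shift of all ratios, the stricter fold or the genes kept. No paired analysis was possible because single samples have no values in the table, and for the same reason no replicate could be left out. With 1 library per tissue, the spread between animals is unknown. Among the clock genes, Per2 had the fewest reads and the widest interval of counting error.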
